A study of Sus scrofa with 36 samples.

Results

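In all, 9 genes tied to growth arrest were followed in the adrenal glands of pigs under heat stress (HS) and thermoneutral (TN) conditions, namely GADD45A, GADD45B, GADD45G, SESN1, SESN2, SESN3, PLK3, CDKN1A and MDM2. They were chosen by name, as targets of the transcription factor p53 and partners of those targets, with the response of SESN1 and GADD45A to temperature already known in these pigs. Of the 9 genes, 8 had a probe on the array, with 16 probes of the 60305 on it. Of these, 14 were among the 45348 probes of the deposited table of normalised log2 intensities. SESN2 had no probe that carried its name or its transcript, and is not analysed here.

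Adrenal RNA came from 36 castrated male growing pigs raised in Guadeloupe. Each pig had its own array, and the 6 groups held 6 pigs apiece. The breeds were Creole, Large White and their cross (Large White x Creole). TN pigs were kept at 24 °C and slaughtered before the room was warmed, and HS pigs after 5 days of heat by the labels' protocol, some of them a day earlier by the study's methods. The heat is given as 32 °C in the protocol and as 30 °C in the arrays' labels. Slaughter day and temperature therefore cannot be told apart. Pigs of a breed were littermates in part and shared pens, which the labels do not record, so each p-value treats related pigs as independent.

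The p53 protein is a transcription factor that is stabilised when DNA is damaged or a cell is stressed, and it switches on genes that halt the cell cycle, repair DNA or trigger apoptosis. CDKN1A encodes p21, an inhibitor of the cyclin-dependent kinases, and MDM2 encodes the ubiquitin ligase that returns p53 to a low level. The GADD45 proteins bind stress kinases and cell cycle regulators, the sestrins restrain growth signalling through mTORC1, and PLK3 is a stress-responsive kinase of the polo family. Several of these genes also answer to other stress pathways, among them FOXO factors, ATF4 and the immediate-early response to growth and hormone signals.

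The probes are 60 bases long, and their letters show which readings are separate measurements. The first 30 bases of the GADD45A and CDKN1A probes are given as the array files list them. Capitals mark the letters within that stretch that probes shifted against each other share. The first pair of GADD45A probes also shares its lower-case letters.
GADD45A probe named by its RefSeq transcript: aaaGAACCACGCAGGATGGAAAACAAAACT
GADD45A probe A_72_P146986: aaaGAACCACGCAGGATGGAAAACAAAACT
GADD45A probe O13891: GAACCACGCAGGATGGAAAACAAAACTatg
CDKN1A probe A_72_P152936: ccCACAGTGCCGAGTATACTGCAGGTGCTC
CDKN1A probe A_72_P715228: CACAGTGCCGAGTATACTGCAGGTGCTCaa
The first pair of GADD45A probes had the same 60 bases, and the third was shifted by 3 bases with 57 in common. The pair of CDKN1A probes was shifted by 2 bases, with 1 difference in the 58 that overlap. These are repeat readings of 1 stretch of RNA and do not count as independent evidence. The probes of GADD45B, of GADD45G and the dim CDKN1A probe O11893 shared no such overlap with others of their gene. SESN1 and PLK3 rest on 1 probe each in the table, and these begin as follows, in lower case since nothing is shared.
SESN1 probe O9299: agtatttttgtttccagcaccgaagttatg
PLK3 probe A_72_P022721: atggaccacttttatttattgacagacatt

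All 14 probes were well above background on 36 of 36 arrays and none was saturated, although SESN3 and the dim CDKN1A probe had median raw intensities of 66.2 and 61.0. Where a gene had more than 1 probe, that with the highest mean stands for it. Levels are normalised log2 intensities, and a difference of 1 is a factor of 2. Probes bind with different strength, so no gene's level is set against another's. Between 42436 and 48060 probes were well above background per array, arrays correlated at 0.982 to 0.996, and the 5 slides were scanned on 1 day with as many TN as HS pigs on each. The tissue carried the markers of the adrenal gland. The summed intensity of 7 of 8 cortex markers lay between 882555 and 1075430 in TN pigs and 844881 and 1098250 in HS pigs. That of 5 of 7 chromaffin cell markers lay between 513164 and 778934 in TN pigs and 500590 and 754002 in HS pigs. No probe here carried the names of CYP11B1, TH or SLC18A2. In whole glands, fewer cells of a type and less RNA per cell cannot be told apart.

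The members did not shift together with temperature. Of them, 3 stood out in the comparison that was in view when they were chosen: GADD45A and PLK3 were lower in HS pigs and SESN1 was higher. GADD45B, GADD45G, SESN3, CDKN1A and MDM2 lay closer to the spread between pigs. With limma and an FDR of 0.05, 0.911% of all 45348 probes were past the threshold for temperature, 0.41% higher and 0.501% lower in HS pigs. Of the 14 member probes, 5 were past it (35.7%), and 3 of these are the overlapping GADD45A probes. Since the choice of members used this contrast, nothing is read from that share, and the differences between HS and TN pigs are given as a description with their standard errors (SE).

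GADD45A, on chromosome 6 of Sscrofa11.1 from 144940702 to 144944089, encodes a growth arrest protein induced by DNA damage. In Creole pigs it ran from 10.10 to 10.77 with a median of 10.35 under TN and from 9.32 to 10.21 with a median of 10.07 under HS. In Large White pigs it ran from 9.96 to 10.81 (median 10.22) under TN and from 9.73 to 10.35 (median 9.89) under HS. In the cross it ran from 9.95 to 11.80 (median 10.45) under TN and from 9.31 to 10.43 (median 9.50) under HS. The TN and HS groups overlapped within each breed, yet 10 of 18 HS pigs lay below the lowest of the 18 TN pigs. Its mean was 10.48 ± 0.50 under TN and 9.85 ± 0.35 under HS (SD, n = 18 each), a log2 difference of -0.63 (SE 0.14) or 0.648 of the TN level. The overlapping probes gave -0.62 and -0.66 and correlated with it at 0.989 and 0.979 over the 36 arrays, as repeat readings would. Of the 18 HS pigs, 17 were below the TN mean of their breed.

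PLK3, on chromosome 6 from 166528760 to 166533734, was the member with the most HS pigs below all TN pigs. Creole pigs ran from 8.33 to 9.13 (median 8.51) under TN and from 7.98 to 8.43 (median 8.26) under HS. Large White pigs ran from 8.37 to 8.74 (median 8.52) under TN and from 7.78 to 8.76 (median 8.15) under HS. The cross ran from 8.26 to 9.13 (median 8.65) under TN and from 7.81 to 8.29 (median 7.91) under HS. In each breed 5 of 6 HS pigs were below all 6 TN pigs of that breed, and 13 of 18 HS pigs were below all 18 TN pigs. The exception in the Large White breed, at 8.76, was also the highest HS pig of all. The mean was 8.61 ± 0.27 under TN and 8.11 ± 0.25 under HS (SD, n = 18 each), a log2 difference of -0.50 (SE 0.09) or 0.707 of the TN level. A further PLK3 probe, outside the table, was well above background on 16 of 36 arrays, 10 TN and 6 HS, with 5.63 ± 0.17 under TN and 5.56 ± 0.20 under HS, and gives no usable second reading.

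SESN1, on chromosome 1 from 75056731 to 75170374, encodes a sestrin that p53 and FOXO factors can induce. Creole pigs ran from 11.40 to 11.996 (median 11.88) under TN and from 11.90 to 12.24 (median 11.98) under HS. Large White pigs ran from 11.68 to 12.16 (median 11.94) under TN and from 11.88 to 12.25 (median 12.16) under HS. The cross ran from 11.36 to 11.79 (median 11.52) under TN and from 11.65 to 12.13 (median 11.89) under HS. The groups overlapped within each breed, and 5 of 18 TN pigs lay below all HS pigs while 4 HS pigs lay above all TN pigs. The mean was 11.76 ± 0.23 under TN and 12.01 ± 0.18 under HS (SD, n = 18 each), a log2 difference of 0.26 (SE 0.06) or 1.19 times the TN level. Of the 18 HS pigs, 17 were above the TN mean of their breed.

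**Figure D1:**
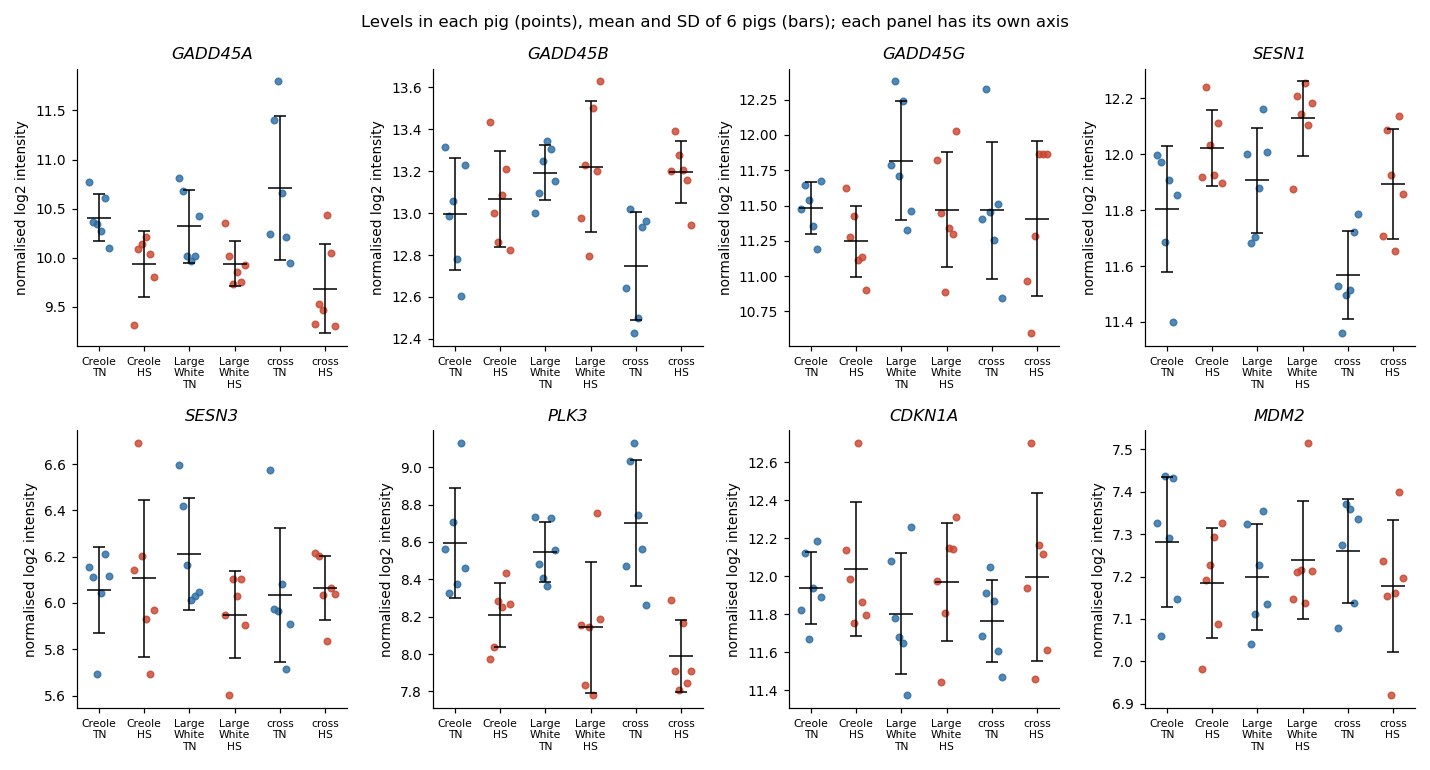
Normalised log2 intensity (vertical axes, a separate scale per gene) of 8 genes in each of 36 pigs, with groups of 6 pigs along the horizontal axes, TN in blue and HS in red, and bars for the mean and SD. PLK3 is lower in 17 of 18 HS pigs than the TN mean of their breed and SESN1 is higher in 17 of 18, whereas the TN and HS points of SESN3, CDKN1A and MDM2 overlap over most of their range.

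Of the other GADD45 genes, GADD45B had an estimate above 0 and GADD45G one below 0, as GADD45A had, and whether the genes differ was not tested. GADD45B (chromosome 2, 76107928 to 76111458), a stress sensor that inflammatory signals also induce, ran from 12.43 to 13.34 (median 13.01) in TN pigs and from 12.79 to 13.63 (median 13.20) in HS pigs. Its log2 difference was 0.18 (SE 0.08), and its second, non-overlapping probe gave 0.20 (SE 0.10). Those probes were higher than the TN mean of the breed in 14 and 15 of 18 HS pigs. GADD45G (chromosome 14, 1166000 to 1167538) ran from 10.85 to 12.38 (median 11.49) in TN pigs and from 10.59 to 12.03 (median 11.32) in HS pigs. Its log2 difference was -0.21 (SE 0.13), with -0.27 (SE 0.11) on its second probe, and 12 of 18 HS pigs were below the TN mean of their breed on either probe. None of these 4 probes was past the FDR for temperature.

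CDKN1A and MDM2, the arms of the pathway that arrest the cycle and restrain p53, had differences smaller than the SD between pigs. CDKN1A (chromosome 7, 32354776 to 32363771) ran from 11.37 to 12.26 (median 11.85) in TN pigs and from 11.44 to 12.70 (median 11.98) in HS pigs, a log2 difference of 0.17 (SE 0.10). The highest values, 12.70 in a Creole and in a cross pig, were HS pigs, and 12 of 18 HS pigs were above the TN mean of their breed. The dim CDKN1A probe O11893 gave 0.03 (SE 0.05), and it correlated with the bright one at 0.37 only. A probe outside the table, well above background on 24 of 36 arrays, stood at 5.64 ± 0.19 in TN and 5.81 ± 0.22 in HS pigs. MDM2 (chromosome 5, 33105717 to 33137602) ran from 7.04 to 7.44 (median 7.28) in TN pigs and from 6.92 to 7.52 (median 7.20) in HS pigs, a log2 difference of -0.05 (SE 0.05). SESN3 (chromosome 9, 27207239 to 27279205), the sestrin linked mainly to FOXO factors, ran from 5.69 to 6.60 (median 6.06) in TN pigs and from 5.60 to 6.69 (median 6.04) in HS pigs. Its log2 difference was -0.06 (SE 0.08), from the dimmest of the leading probes.

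The next comparison asked whether the breeds answered heat in the same way, which was not used to choose the genes. For GADD45A the log2 difference between HS and TN was -0.47 in Creole pigs, -0.38 in Large White pigs and -1.03 in the cross (SE 0.24 each). For PLK3 it was -0.38, -0.40 and -0.71 (SE 0.15 each), and for SESN1 0.22, 0.22 and 0.33 (SE 0.10 each), in the same order of breeds. The cross thus gave the widest estimate for these 3 genes. It did so for GADD45B too, with 0.07 in Creole pigs, 0.03 in Large White pigs and 0.45 in the cross (SE 0.13 each), where 5 of 6 HS pigs of the cross lay above all 6 of its TN pigs. The second GADD45B probe set the cross less apart, with 0.25 in Creole pigs, -0.03 in Large White pigs and 0.39 in the cross. SESN3 had its widest estimate in Large White pigs instead, at -0.26, against 0.05 in Creole pigs and 0.03 in the cross (SE 0.13 each), and 6 of 6 Large White HS pigs were below the TN mean of their breed. These differences between breeds did not pass the test. For the interaction of breed and temperature, limma's F test called 0 of the 14 probes, none had an unadjusted p under 0.05, and the lowest unadjusted p was 0.0590, for GADD45B (adjusted p = 0.982). Over all 45348 probes 0% were past it, with 1914 at an unadjusted p under 0.05, so the arrays do not show that the response of any member depends on breed, nor that it is alike.

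**Figure D2:**
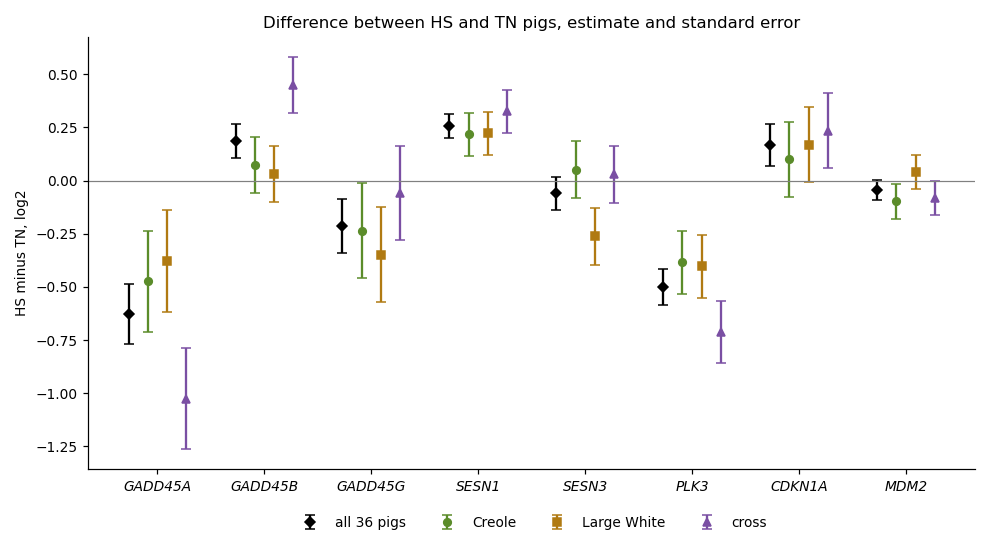
Log2 difference between HS and TN pigs (vertical axis) for 8 genes (horizontal axis), as the limma estimate and its standard error over all 36 pigs (black) and within Creole, Large White and cross pigs. GADD45A and PLK3 lie below 0 and SESN1 above 0 in each breed, with the cross at -1.03 for GADD45A and 0.45 for GADD45B.

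Levels across breeds were tested next, with temperature in the model. Over all probes 10.6% were past the FDR for breed. Of the 14 member probes, repeat readings included, 1 was (7.14%). By gene it was 1 of 8, against 10.8% of all named genes, and nothing is read from either share. It was the SESN1 probe (limma F test with Benjamini-Hochberg adjustment, adjusted p = 0.0157). With the processed signal minus its 75th percentile, or without slide 3, 0 member probes passed for breed. SESN1 stood at 11.91 ± 0.21 in Creole pigs, 12.02 ± 0.19 in Large White pigs and 11.73 ± 0.24 in the cross (SD, TN and HS pigs together). The cross was lower than the mean of its parent breeds by a log2 difference of -0.23 (SE 0.06), which did not pass the FDR on its own (adjusted p = 0.0766 in limma, where 0.415% of all probes passed). Large White minus Creole was 0.11 (SE 0.07, adjusted p = 0.381 in limma). Across the 6 groups, SESN1 was highest in Large White HS pigs, then Creole HS, Large White TN, cross HS, Creole TN and cross TN pigs. Only the last step in that order, 0.23 from Creole TN to cross TN, was wider than the larger SD of the neighbouring groups.

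For the other 7 genes no test between breeds passed. No member probe passed for Large White minus Creole, where 11.5% of all probes did (5.98% higher and 5.5% lower in Large White pigs), with estimates between -0.10 for CDKN1A and 0.28 for GADD45G (SE 0.12 and 0.16). Adipocyte markers differed between the breeds over the same arrays, with summed intensities of 3023.65 to 8095.28 in Creole TN, 2282.35 to 3682.18 in Large White TN and 3344.14 to 6728.76 in cross TN pigs. Chromaffin cell markers did too, with summed intensities of 513164 to 663079 in Creole TN, 704036 to 759260 in Large White TN and 614718 to 778934 in cross TN pigs. Under HS these sums overlapped, at 500590 to 653416 in Creole, 522289 to 754002 in Large White and 596329 to 698753 in cross pigs. Past the FDR for breed were 3 of 5 adipocyte markers, 2 of 5 chromaffin cell markers, 2 of 7 cortex markers, 1 of 4 endothelial markers and 1 of 5 fibroblast and smooth muscle markers, with 0 of 7 leukocyte and 0 of 4 red blood cell markers, against 10.8% of all named genes. Their part in the breed difference of SESN1 was not tested. For GADD45A and for PLK3 the 3 TN groups stood above the 3 HS groups, and the step from the lowest TN to the highest HS group was 1.01 and 1.99 times the larger SD of those neighbours. Other neighbours in the order of these genes were closer than 1 SD.

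Within the 5 slides the direction of GADD45A and PLK3 held on each. The log2 difference of PLK3 was -0.47, -0.46, -0.51, -0.77 and -0.26 on slides 1 to 5. That of GADD45A was -1.43, -0.49, -0.41, -0.81 and -0.40, and that of SESN1 was -0.03, 0.23, 0.30, 0.46 and 0.17. Slide 1 held 4 pigs, the TN pair being Large White and the HS pair 1 Creole and 1 cross pig, so breed and temperature cannot be told apart on it. The GADD45A difference was widest on that slide, and without it the log2 difference over the other pigs was -0.50. With each slide left out in turn, the log2 difference lay between -0.57 and -0.42 for PLK3, between -0.70 and -0.50 for GADD45A and between 0.21 and 0.30 for SESN1. GADD45A was not past the FDR without slide 1, 2, 3 or 4. SESN1 was not past it without slide 2, 3 or 4, with the processed signal minus its 75th percentile, with median centring or with no breed term, while PLK3 was past it in all 48 fits run. These calls are on the contrast used to choose the members and lend them no support. GADD45G was lower in HS pigs on slides 1 to 3 and higher on slides 4 and 5, from -0.79 to 0.11. On its second probe slide 4 also had a value below 0, at -0.14.

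**Figure D3:**
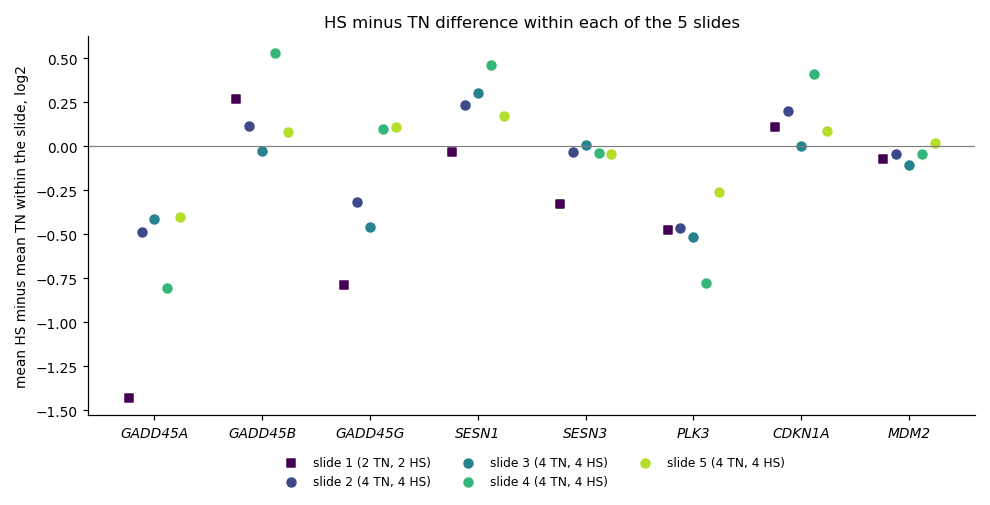
Mean of HS pigs minus mean of TN pigs within a slide, on the log2 scale (vertical axis), for 8 genes (horizontal axis) and 5 slides, with a square for the slide of 4 pigs and circles for slides of 8. All 5 points lie below 0 for GADD45A and PLK3, and the square for GADD45A at -1.43 is the widest.

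PLK3 and GADD45A RNA ran in the same direction over the pooled pigs. Over the 36 arrays the brightest probes of PLK3 and GADD45A had a Pearson r of 0.72, and 0.48 after the 6 group means were subtracted. PLK3 and SESN1 ran in opposite directions, with r of -0.61 and -0.47 within groups. PLK3 and MDM2 had r of 0.50 and 0.56 within groups, with a difference between HS and TN pigs of -0.05 for MDM2. GADD45A and CDKN1A had r of 0.08 and 0.37 within groups. The pooled r of these genes holds the temperature contrast that was in view when the members were chosen. Cross TN pigs 2 and 3 were high for both PLK3 (9.04 and 9.13) and GADD45A (11.40 and 11.80). Whether r holds without them was not tested. All of these values are descriptions over arrays that share labelling, slides and normalisation.

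**Figure D4:**
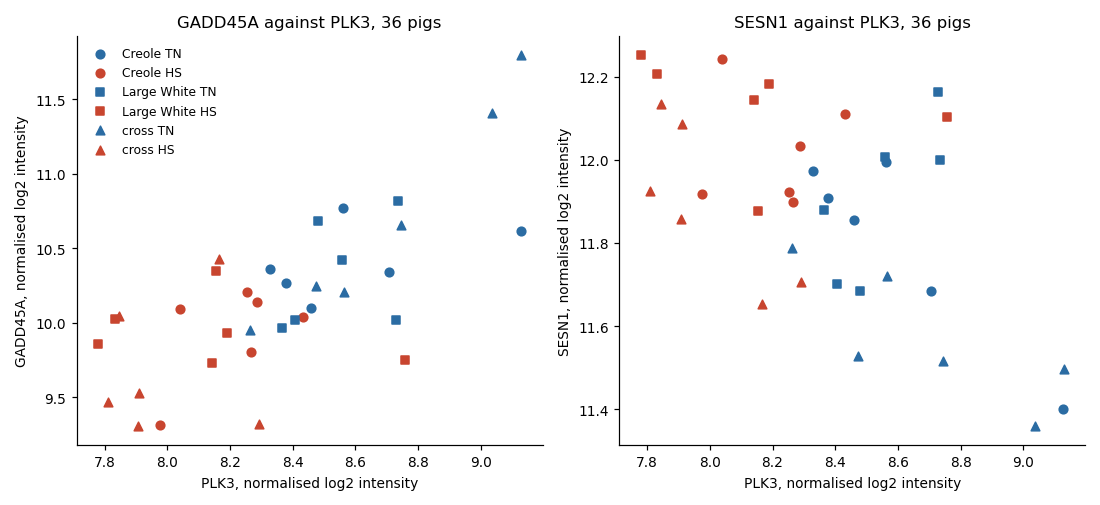
GADD45A (left) and SESN1 (right) against PLK3, all as normalised log2 intensities, with 1 point per pig, colour for temperature and shape for breed. Over TN and HS pigs pooled, GADD45A is higher (r 0.72) and SESN1 lower (r -0.61) where PLK3 is higher. A pair of cross TN pigs at the upper right of the left panel is high for both genes.

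Genes with the most similar pattern were taken from 10056 other named genes by Pearson r over the 36 arrays. PLK3 was nearest to NDUFAF4, an assembly factor of mitochondrial complex I (r 0.85), FOSL1, a Fos-family transcription factor (0.84), and TOR1AIP2 (0.81), with 0.74, 0.83 and 0.79 after the group means were subtracted. GADD45A was nearest to PPP2R3C, a phosphatase subunit (0.84), PPP1R15B, which directs dephosphorylation of the translation factor eIF2 alpha (0.74), and IFRD1 (0.74), and these were lower within groups at 0.77, 0.62 and 0.56. GADD45G was nearest to ADM, the gene of adrenomedullin (0.77), and to the immediate-early genes FOS (0.76) and DUSP1 (0.70), with 0.76, 0.78 and 0.70 within groups. SESN1 was nearest to SAMD13 (0.73), SLMAP (0.69) and GPR182 (0.68), with 0.64, 0.73 and 0.55 within groups. GADD45B was nearest to COL4A3BP (0.74), SAMD13 (0.68) and BCL9L (0.65), with 0.64, 0.62 and 0.50 within groups. The pooled r of these genes holds the temperature contrast that was in view when the members were chosen. CDKN1A was nearest to ARMCX6 (0.70), CYP2D25 (0.62) and SHMT1 (0.61), with 0.68, 0.62 and 0.59 within groups. MDM2 was nearest to HPDL (0.74), ADAMTSL4 (0.70) and PNPLA7 (0.70), with 0.76, 0.72 and 0.70 within groups, and SESN3 to ARPC2 (0.72), ACBD3 (0.66) and CNOT2 (0.63), with 0.69, 0.67 and 0.63.

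The rest of the pathway was read from 8 lists with 123 genes, of which 99 had a named probe in the table. Their brightest probes had a median log2 difference of -0.037, against -0.0057 over 10057 named genes. Of the 99 genes, 0 were past the FDR as higher in HS pigs and 4 as lower (4.04%, against 0.974% of all named genes in either direction). The lists, like the members, were chosen with results for temperature in view, so nothing is read from that share. These 4 were CDK1, RRM2, DUSP1 and EGR1. Without slide 1, 2, 3 or 4 the number past the FDR as lower was 1, 0, 0 and 0, and with the processed signal minus its 75th percentile it was 2, with 1 gene past it as higher. Of the 4, CDK1, the kinase that drives mitosis, and RRM2, a ribonucleotide reductase subunit of dividing cells, belong to the cell cycle and repair lists, while DUSP1 and EGR1 are immediate-early genes.

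In the list of pathway regulators no named gene passed, and the widest estimates were -0.14 (SE 0.16) for CCNG1, a cyclin induced by p53, and 0.13 (SE 0.07) for TP73. Of 16 apoptosis genes none passed, the estimates lay between -0.19 and 0.19, and the widest was that of FAS, the death receptor, at -0.19 (SE 0.09). Of 14 cell cycle genes only CDK1 passed, from 8.90 ± 0.29 to 8.52 ± 0.28 (log2 difference -0.38, SE 0.09, limma adjusted p = 0.0348). Of 15 genes in the repair, growth and metabolism list only RRM2 passed, from 8.89 ± 0.33 to 8.48 ± 0.27 (log2 difference -0.41, SE 0.10, limma adjusted p = 0.0313). RRM2B, in the same list, stood at -0.007 (SE 0.04). Whether p53 had a part in the RRM2 difference was not tested.

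The lists of other regulators held no gene past the FDR. Among 13 FOXO targets the widest were FBXO32, a muscle ubiquitin ligase subunit, at 0.26 (SE 0.13) and KLF15 at 0.20 (SE 0.10). Among 10 ATF4 targets DDIT3, the stress factor CHOP, stood at 0.24 (SE 0.07) and the amino acid transporter chain SLC3A2 at -0.22 (SE 0.10). Among 9 relatives of the members, CDKN2D, a further kinase inhibitor, stood at 0.13 and PLK1, the mitotic polo kinase, at -0.13 (SE 0.07 each).

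Of the 8 pathway lists, that of the immediate-early genes had the median farthest from 0. All 10 with a probe had an estimate below 0, with a median of -0.19, and 2 were past the FDR. Over all 10057 named genes 5343 had an estimate below 0 and 0.974% were past the FDR. Without slide 2, 3 or 4 neither gene was past it. DUSP1, a phosphatase that shuts off MAP kinases, ran from 13.53 ± 0.42 to 13.01 ± 0.37 (log2 difference -0.52, SE 0.13, limma adjusted p = 0.0417). EGR1, a zinc finger transcription factor, ran from 10.06 ± 0.52 to 9.45 ± 0.45 (log2 difference -0.61, SE 0.16, limma adjusted p = 0.0498). Markers of cell types moved beside these genes in part. NR5A1, a cortex regulator, was lower by -0.25 (SE 0.06) and S100A8, a neutrophil gene, by -0.71 (SE 0.15), the only markers past the FDR of the 37 measured in 7 lists. Of the 7 leukocyte markers, S100A8 included, 3 had estimates above 0 and the list median was -0.0093. Estimates were below 0 for all 5 chromaffin cell markers (median -0.21), all 7 cortex markers (median -0.060) and all 4 red blood cell markers (median -0.11), against 5343 of the 10057 named genes. The part of these markers in the differences of GADD45A, PLK3 and the immediate-early genes was not tested.

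**Figure D5:**
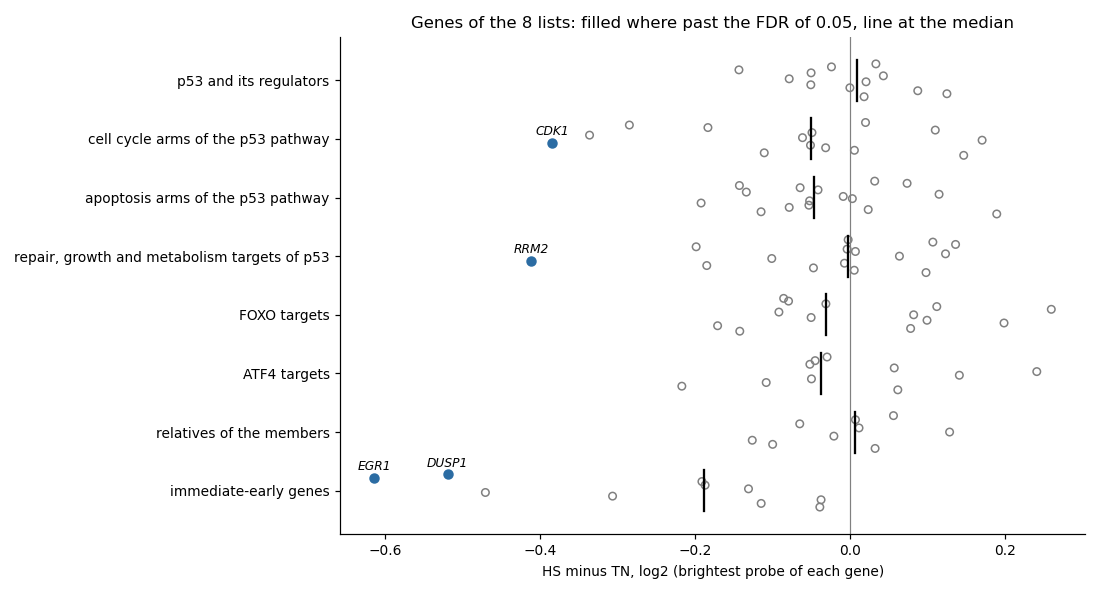
Log2 difference between HS and TN pigs (horizontal axis) for the genes of 8 lists (rows), by the brightest probe of each gene, filled where past the FDR of 0.05 and with a line at the list median. The filled points are CDK1, RRM2, DUSP1 and EGR1, all below 0, and each of the 10 immediate-early genes lies below 0.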

How the data were processed

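Members and gene lists were chosen with earlier results of these data known. The authors labelled RNA with Cy3 and read each spot's intensity with Agilent Feature Extraction 10.10.1.1. They deposited these scanner intensities, not normalized between arrays, and a table of log2 values after quantile normalization. Within an array, its values had the same order as the raw median intensities (Spearman rho 1). It was used as deposited, with 45348 probes, of which 87 had a missing value. It held 0 columns of other samples. Depth has no counterpart on arrays, and the 6 pigs per group limit the precision.

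Probes were named by the array files' gene name (21481 of 60305), a RefSeq transcript (2898) or an older symbol (195). Coordinates are those of RefSeq genes on Sscrofa11.1. Samples were grouped by the breed and temperature in the labels. Differences were tested by lmFit and eBayes of limma 3.58.1 (R 4.3.3) over all probes and all 36 arrays with breed and temperature as fixed effects, F tests for breed and for the interaction, contrasts between breeds, Benjamini-Hochberg adjustment and a threshold of 0.05. Pen, slaughter day and parents, random effects in the study's model, are not in the labels and were not used. A bare value after ± is an SD over pigs.

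Named genes are the 9 members, each list gene past the threshold for temperature or otherwise the 1 or 2 with the widest difference, and the 3 nearest patterns. Gene values come from the probe with the highest mean. On simulated data for HS against TN with 200 of 45348 probes changed, limma recovered 90% of changes of 0.5 and 100% of changes of 1 (log2), with 12 false calls. The simulated arrays were independent, without litter, pen, slaughter day, slide or breed effects. These figures therefore need not hold for the pigs studied. Alternatives were the scanner intensities quantile normalized here, normexp with an offset of 50, the processed signal minus its 75th percentile, median centring, probes well above background on all 36 arrays, slide as a block, no breed term, all probes of a gene averaged, each slide alone or left out, and each pig left out. Folds are powers of 2 of differences in log2 values.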

Additional observations from a re-analysis of the deposited data

Results flagged for a closer look

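Single pigs stood apart in 2 of 48 groups of 6 pigs, where chance alone gives 2.4. SESN3 in Creole TN pig 3 was 5.69, below the 6.04 to 6.21 of the other 5 pigs of its group, on slide 3. MDM2 in Large White HS pig 5 was 7.52, above the 7.14 to 7.22 of the other 5, on slide 4.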

How the results depend on the processing

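No paired analysis was possible because the labels carry no replicate numbers that the groups share. The members' differences between HS and TN pigs kept their sign over the other normalizations, background corrections and filters. Within slides, SESN1 turned to -0.031 on slide 1, and GADD45B, GADD45G, SESN3 and MDM2, which were not past the FDR, changed sign on 1 or 2 slides. Counts of calls moved with the slides left out. Without slide 1, 2, 3 or 4, 171, 40, 34 and 53 probes passed for temperature and 2, 1, 1 and 1 member probes, and 1, 0, 0 and 0 pathway genes passed as lower. With slide as a fixed block, 899 probes passed for temperature and 316 for cross minus parents. With the processed signal minus its 75th percentile, 1 pathway gene passed as higher and 2 as lower, and 0 member probes for breed. With median centring, 120 probes passed for cross minus parents. For breed, 2673 and 2026 probes passed without slides 2 and 3, and for Large White minus Creole 3357 and 2569. Without slide 3, 0 member probes passed for breed. Cross minus parents gave 41, 14 and 86 probes without slides 2, 3 and 5, and the interaction gave 1 without slide 3 and 1 without slide 4. The fits without a slide had fewer arrays, and the cause was not tested.

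Over the fits that each lack 1 pig, the count was 229 to 819 for temperature (4 to 5 member probes), 4158 to 4896 for breed (1 to 1), 4504 to 5342 for Large White minus Creole (0 to 0), 108 to 229 for cross minus parents (0 to 1) and 0 to 1 for the interaction (0 to 0). The count for temperature moved most without Large White TN pig 2 (273), cross HS pig 2 (243), cross TN pigs 2, 3 and 4 (251, 229 and 265), Large White HS pigs 4 and 5 (234 and 819) and Creole HS pig 6 (727). Cross minus parents did so without cross TN pigs 1, 2 and 6 (123, 113 and 124) and cross HS pigs 3 and 4 (108 and 109), and the interaction without Creole HS pig 2 (1). SESN1 passed for cross minus parents without Creole TN pig 5 or cross HS pig 5.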
